A study of Mus musculus with 4 samples.

Results

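The 10 genes described here belong to the BCL2 family: the paralogues Bcl2a1a, Bcl2a1b, Bcl2a1c and Bcl2a1d, and Bcl2, Bcl2l1, Mcl1, Bax, Bak1 and Bcl2l11. The paralogues are genes of the protein A1 (BFL-1), but the coding sequence of Bcl2a1c is shorter and leaves the frame of the others. The members were chosen by name out of 17574 genes, with the difference between treated and control tumours already known. That difference is therefore given for them as a description. Calls of members in the fit over all genes are counted without reading anything from them. All 10 were found, and all 10 passed the filter on low values. The tumours came from SCC7 cells, a mouse line labelled as a head and neck squamous cell carcinoma, placed under the skin of the back of C3H/HeN mice of wild-type genotype. The treated group (2 libraries, here treated replicates 1 and 2, marked anti-CD71 in the plots) was given anti-CD71, an antibody to the receptor that takes up transferrin-bound iron, on days 6 and 9, and the other group (2 libraries) is labelled as control without naming a control antibody. Tumours of both groups were taken on day 10, and RNA of the whole tumour was sequenced. The age and sex of the mice are not in the labels, nor do they say whether a library came from 1 mouse or from a pool, so the spread between replicates may be technical.

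BCL2 family proteins decide at the outer mitochondrial membrane whether a cell enters apoptosis. Pro-survival members (A1, BCL2, BCL-XL from Bcl2l1, and MCL1) bind and hold the effectors BAX and BAK, which otherwise form pores that let cytochrome c out. BH3-only proteins such as BIM, from Bcl2l11, bind the pro-survival members and can switch on the effectors. A1 is known mainly from blood-derived cells, among them macrophages, neutrophils, mast cells and activated lymphocytes, and its genes are classical targets of the transcription factor NF-kappa-B. The mouse has several near-identical A1 genes where the human genome has a single gene.

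Values are TPM, a level scaled for transcript length and to the same total in every library, as deposited per RefSeq transcript and added up per gene. TPM keeps no read depth, so no counting error can be given. The complete files of the 2 controls and of treated replicate 2 listed 59881 transcripts each. For treated replicate 1 a list of 13586 of them (22.69%) was used, and a transcript outside that list is missing, not 0. Only Bcl2a1c and Bcl2a1d could therefore be compared over all 4 libraries. Bcl2l1 and Bcl2l11 were listed in part in treated replicate 1, and the other 6 members were not listed there at all. Over 1563 genes listed in all files, the log2 difference between the 2 treated libraries had an SD of 0.294, against 0.222 between the controls, so standard errors over the 3 complete libraries rest on the smaller of these spreads. Krt8 and Krt18, keratins of simple epithelium, stood at 1132 and 1203 TPM and at 657 and 680 TPM in the controls, whereas the squamous markers Krt5 (listed at 0 in both), Krt14 (0.09 and 0.1 TPM) and Trp63 (0.18 and 0.32 TPM) were near 0. Anti-CD71 replicate 2 stood apart from the controls by genes of skin and hair. Among them were Krt71 with 77.1 TPM (0.06 and 0 in the controls), Krt5 with 31.4 TPM and Krt14 with 36.4 TPM. These 3 genes are not listed in treated replicate 1, so the treated libraries cannot be compared by them. Tfrc, which encodes CD71, had 44.1 and 36.2 TPM in the controls and 29.0 TPM in treated replicate 2 (log2 difference -0.45, adjusted p = 0.141, limma).

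The paralogues are so alike that the reads behind them are hard to assign, which is why their sequences are shown before their values. All 4 lie on chromosome 9 of GRCm38.p6: Bcl2a1d at chr9:88723288-88731850 on the minus strand, Bcl2a1a at chr9:88956920-88962416, Bcl2a1b at chr9:89199273-89207838 and Bcl2a1c at chr9:114330135-114330578, these 3 on the plus strand. The first 60 bases of each coding sequence, read from GENCODE M21 transcripts, are set out here with capitals where the 4 differ.
Bcl2a1a: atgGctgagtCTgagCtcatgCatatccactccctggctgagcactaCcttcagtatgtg
Bcl2a1b: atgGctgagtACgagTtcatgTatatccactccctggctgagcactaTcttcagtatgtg
Bcl2a1c: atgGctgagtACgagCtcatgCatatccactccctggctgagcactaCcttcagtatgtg
Bcl2a1d: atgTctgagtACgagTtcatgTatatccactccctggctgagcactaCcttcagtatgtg

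Over the aligned coding sequence, Bcl2a1b and Bcl2a1d were 98.84% identical, Bcl2a1a and Bcl2a1d 98.65%, and Bcl2a1a and Bcl2a1b 97.88%. Bcl2a1c was 96.64% identical to Bcl2a1a, 96.38% to Bcl2a1d and 95.61% to Bcl2a1b. The longest stretch without a difference ran to 314 bases between Bcl2a1a and Bcl2a1d, but to 88 bases at most between Bcl2a1c and another paralogue. Bcl2a1c is also the gene with another structure. Its annotated transcript of 444 bases has 1 exon and a coding sequence of 387 bases (128 codons before the stop), while each of the other 3 has 2 exons and a coding sequence of 519 bases (172 codons). The reading frames part at a run of A bases that starts at coding base 301 and holds 7 A in Bcl2a1c and 6 in the others, after which the Bcl2a1c frame runs for 87 bases to its end, the run included. The stretch around this run, coding bases 283 to 342 (343 in Bcl2a1c), is shown with capitals at the extra base and wherever the paralogues differ.
Bcl2a1a: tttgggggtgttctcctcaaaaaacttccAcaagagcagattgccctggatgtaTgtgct
Bcl2a1b: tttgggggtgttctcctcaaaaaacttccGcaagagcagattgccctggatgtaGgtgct
Bcl2a1c: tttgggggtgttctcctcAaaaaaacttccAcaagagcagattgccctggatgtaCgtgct
Bcl2a1d: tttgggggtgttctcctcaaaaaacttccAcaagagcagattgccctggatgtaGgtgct

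How far a read can tell the genes apart follows from their transcripts. Of all 100-base stretches of the Bcl2a1c transcript, 100% occur in no other paralogue, against 68.9% for Bcl2a1b, 56.5% for Bcl2a1a and 45.3% for Bcl2a1d. With 50-base stretches these shares were 89.6%, 42.4%, 31.0% and 20.5%. Of the 4 values, that of Bcl2a1c is therefore the least exposed to shared reads, and the split among the other 3 is uncertain, since the program that shared out the reads is not given in the sources used here. The reference genome is that of C57BL/6J and the tumours are of C3H origin, and the effect of strain differences on the assignment was not tested. Other annotated genes overlap 2 of the paralogues: Gm29094 shares the strand of Bcl2a1b, and the antisense gene Gm10634 lies across Bcl2a1d. Further members are overlapped too. Gm45808 shares the strand of Bax, and Ggnbp1 lies across Bak1 on the opposite strand. Cox4i2 and Gm23802 overlap Bcl2l1, and D630008O14Rik, Mir3473f and Gm37053 overlap Bcl2. Whether the reads were counted by strand is not stated, so reads from these genes cannot be told from those of the members.

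**Figure D1:**
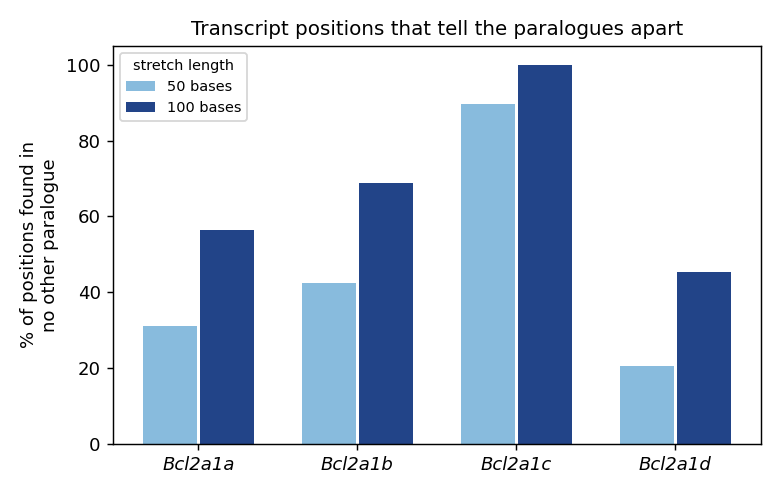
Share of 50-base (light bars) and 100-base (dark bars) stretches of each Bcl2a1 transcript, in percent, that occur in none of the other 3. Bcl2a1c has the highest shares (89.6% and 100%) and Bcl2a1d the lowest (20.5% and 45.3%).

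Both A1 genes that could be compared in all libraries were lower in the anti-CD71 tumours. Bcl2a1c had 16.0 and 16.3 TPM in the controls and 3.51 and 3.34 TPM in treated replicates 1 and 2. The 2 treated libraries lay close together and far below both controls. Their means were 16.1 ± 0.21 TPM (SD, n = 2) and 3.42 ± 0.12 TPM (SD, n = 2), a 4.71-fold difference in level, and the difference on the log2(TPM + 1) scale was -1.95 (SE 0.10). Bcl2a1d had 65.9 and 70.0 TPM in the controls, with 35.4 TPM in treated replicate 1 against 29.0 TPM in the other treated library. Again both treated libraries lay below both controls, without overlap, although they differed more from each other than those of Bcl2a1c. The means were 68.0 ± 2.86 and 32.2 ± 4.56 TPM (SD, n = 2 each), a 2.11-fold difference in level and -1.06 (SE 0.11) in log2.

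Among the 1563 genes tested over 4 libraries, Bcl2a1c had the 3rd lowest log2 difference and Bcl2a1d the 13th. Both were called lower, where 3.45% of all tested genes were called lower, and 31.1% of all tested genes had both treated libraries below both controls. These genes were chosen with this contrast known, so nothing is read from the count. It also depends on the controls and the settings: neither gene was called without control replicate 1 or without control replicate 2, while both were called without either treated library. With no filter on low values neither was called, and with the replicate number as a block Bcl2a1c alone was. The log2 differences themselves ran from -1.98 to -1.93 for Bcl2a1c and from -1.20 to -0.92 for Bcl2a1d when each library was left out in turn.

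The 2 A1 genes that the partial list lacks were also lower in the library that holds them. Bcl2a1b, the A1 gene with the highest level, had 96.2 and 95.8 TPM in the controls and 38.9 TPM in that library. Bcl2a1a had 35.1 and 40.8 TPM in the controls and 13.1 TPM there. For both genes the treated library lay well below the pair of controls, by 2.47-fold for Bcl2a1b and 2.90-fold for Bcl2a1a relative to the control mean. On the same footing, with treated replicate 2 alone against the controls, the value was 4.83-fold for Bcl2a1c and 2.34-fold for Bcl2a1d.

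**Figure D2:**
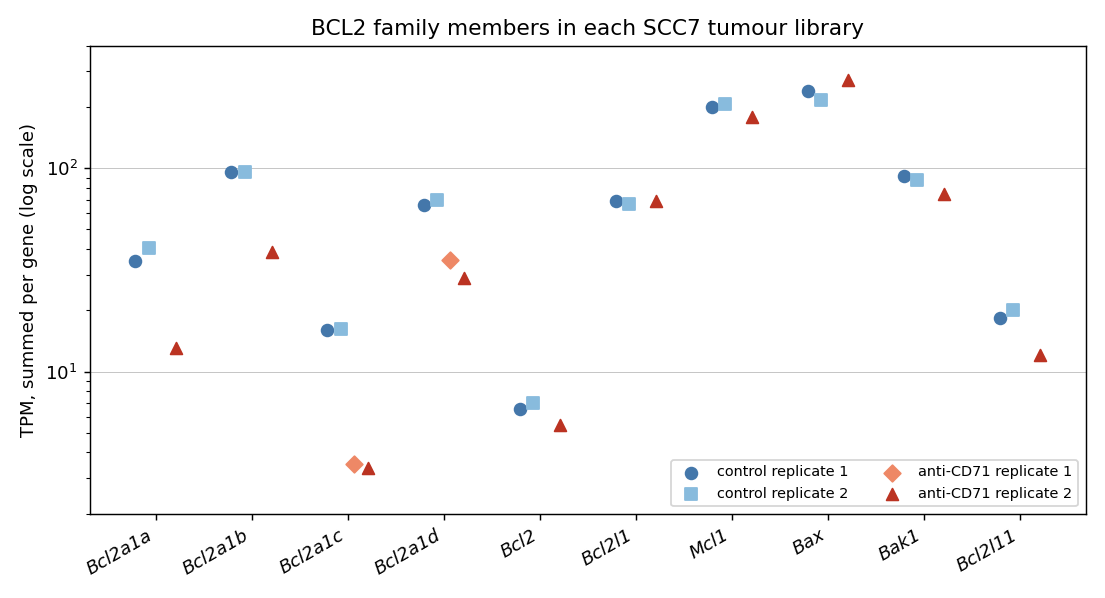
Level of each of the 10 members in TPM, on a log axis, with 1 point for each library. The treated points of the 4 Bcl2a1 paralogues lie below the control points, by 2.34-fold to 4.83-fold in treated replicate 2. Those of the other 6 members lie nearer to the controls, with Bcl2l11 1.58-fold below its control mean. Anti-CD71 replicate 1 has points for Bcl2a1c and Bcl2a1d alone, since the other genes were not listed there, or only in part.

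Because the split of reads among the paralogues is uncertain, their values were also added. Summed Bcl2a1 was 213 and 223 TPM in the controls and 84.3 TPM in treated replicate 2. The treated library held 2.59-fold less than the control mean of 218 ± 6.82 TPM (SD, n = 2), a log2 difference of -1.36. Over the 2 paralogues listed in every file, the sum was 81.9 and 86.3 TPM in the controls and 39.0 and 32.3 TPM in treated replicates 1 and 2. The sum of all 4 depends less on how reads were split among them. It is not free of the split, since TPM are scaled by transcript length. That length is 444 bases for Bcl2a1c and 817 to 863 bases for the others. How reads that match several genes were treated is not given either. The sum of Bcl2a1c and Bcl2a1d depends more on the split, since Bcl2a1d shares 64.0% and 54.3% of its 50-base stretches with Bcl2a1a and Bcl2a1b.

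The paralogues did not keep the same proportions. Bcl2a1b made up 45.1% and 43.0% of the sum in the controls and 46.1% in treated replicate 2, and Bcl2a1d 30.9% and 31.4% against 34.4%. Bcl2a1a held 16.5% and 18.3% against 15.5%. The share of Bcl2a1c was 7.50% and 7.31% in the controls and 3.96% in treated replicate 2. The ratio of Bcl2a1c to Bcl2a1d shows the same in all 4 libraries, with 0.242 and 0.233 in the controls and 0.099 and 0.115 in the treated libraries. Bcl2a1c, the truncated form with the 7 A bases, was thus lower relative to Bcl2a1d in both treated libraries. Bcl2a1d has the smallest share of 50-base stretches of its own (20.5%), so the ratio depends on how reads were split.

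Since all 4 genes were lower, the DNA upstream of their start sites was compared (RefSeq, GRCm38.p6, 250 bases before the gene start). Bcl2a1a and Bcl2a1b were 99.5% identical over 206 aligned bases, and Bcl2a1a and Bcl2a1d 95.2% identical over 250 bases. Bcl2a1c was 94.3%, 95.7% and 90.7% identical to Bcl2a1a, Bcl2a1b and Bcl2a1d over shorter alignments. A loose AP-1 pattern (TGA, any base, then TCA), on either strand, occurred once in Bcl2a1a, Bcl2a1b and Bcl2a1d and not in Bcl2a1c. The matched letters were TGAATCA each time, and 6.7% of all 32851 promoters of that length held the pattern. The stretches that match each other are printed with these 7 bases in capitals, in the direction of the gene. They lie at chr9:88956780-88956839 (plus strand, Bcl2a1a), chr9:89199089-89199148 (plus strand, Bcl2a1b), chr9:114329885-114329944 (plus strand, Bcl2a1c) and chr9:88731925-88731984 (minus strand, Bcl2a1d).
Bcl2a1a: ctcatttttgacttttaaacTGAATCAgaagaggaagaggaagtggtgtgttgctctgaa
Bcl2a1b: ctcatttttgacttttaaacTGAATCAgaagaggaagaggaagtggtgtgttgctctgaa
Bcl2a1c: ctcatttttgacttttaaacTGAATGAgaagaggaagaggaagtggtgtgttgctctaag
Bcl2a1d: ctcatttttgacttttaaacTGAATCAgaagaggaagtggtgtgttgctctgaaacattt

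Counted from 1 at the first capital, the Bcl2a1c stretch differs from that of Bcl2a1a within the capitals by C6G. The letters GAGGAAG, the purine-rich core of an ETS site, occurred 2 times in Bcl2a1a, Bcl2a1b and Bcl2a1c (overlapping by 1 base) and 1 time in Bcl2a1d, just after the capitals, while 10.6% of all promoters held them. A loose kappa-B pattern (GGG, any 5 bases, then CC), on either strand, occurred in the Bcl2a1c window, as 2 matches that overlap by all but 1 base, and not in the windows of the other paralogues. It occurs in 45.8% of all promoters. A match is a description of letters and does not show that a factor binds, and a window without a match says only that the letters are not in those 250 bases.

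The other pro-survival genes showed no difference of that size. Mcl1, whose short-lived protein many tumour and myeloid cells depend on, had 201 and 208 TPM in the controls and 178 TPM in treated replicate 2, 1.15-fold below the control mean (log2 difference -0.20, SE 0.07). Bcl2l1, the gene of BCL-XL, had 69.1 and 66.4 TPM in the controls and 68.9 TPM in treated replicate 2, inside the range of the controls (0.02, SE 0.08). Bcl2, the family's founding member, was low, with 6.56 and 7.04 TPM in the controls and 5.45 TPM in the treated library (-0.27, SE 0.13). Mcl1 and Bcl2 thus lay slightly below both controls in the treated library, and Bcl2l1 did not. Part of Bcl2l1 was also listed in treated replicate 1. The curated transcript that held 33.65% of its control TPM had 22.5 and 23.1 TPM in the controls and 24.6 and 26.9 TPM in treated replicates 1 and 2, and its main transcript (51.0%) had 35.0 and 34.1 TPM against 31.5 TPM in replicate 2.

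Of the effectors, which form the mitochondrial pores, Bax had the highest level of all 10 members. It stood at 239 and 217 TPM in the controls and 273 TPM in treated replicate 2, 1.20-fold above the control mean (log2 difference 0.26, SE 0.08). Bak1 had 91.5 and 87.2 TPM in the controls and 75.1 TPM in the treated library (-0.25, SE 0.08). The effectors therefore lay on opposite sides of the controls, Bax above and Bak1 below.

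Bcl2l11, the gene of the BH3-only protein BIM, had 18.3 and 20.1 TPM in the controls and 12.1 TPM in treated replicate 2. This was 1.58-fold below the control mean (log2 difference -0.62, SE 0.11) and the lowest log2 difference among the members outside the A1 group. Its only transcript listed in all files held 26.97% of the control TPM and had 5.71 and 4.63 TPM in the controls and 4.14 and 3.67 TPM in the treated libraries. Both treated libraries were below both controls there, by less than the gene as a whole.

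Over the 3 complete libraries, the 4 paralogues were called lower and the other 6 members were not called, where 2.39% of the 11982 tested genes were called lower and 0.476% higher. The members were chosen with this contrast known, and nothing is read from these counts. With genes kept at 1 TPM in 1 library instead of 2, Bcl2a1b and Bcl2a1c alone were called, and with no filter none of the 10. In 8 of the 10 members the treated library lay below both controls, as in 42.5% of all tested genes, and in 1 (Bax) above both, as in 39.5%. The median log2 difference was -1.37 for the paralogues, -0.22 for the other 6 members and -0.01 for all tested genes. Counted from the lowest of the 11982 genes, Bcl2a1c was the 16th, Bcl2a1a the 41st, Bcl2a1b the 67th and Bcl2a1d the 93rd, while Bcl2l11 was the 598th.

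**Figure D3:**
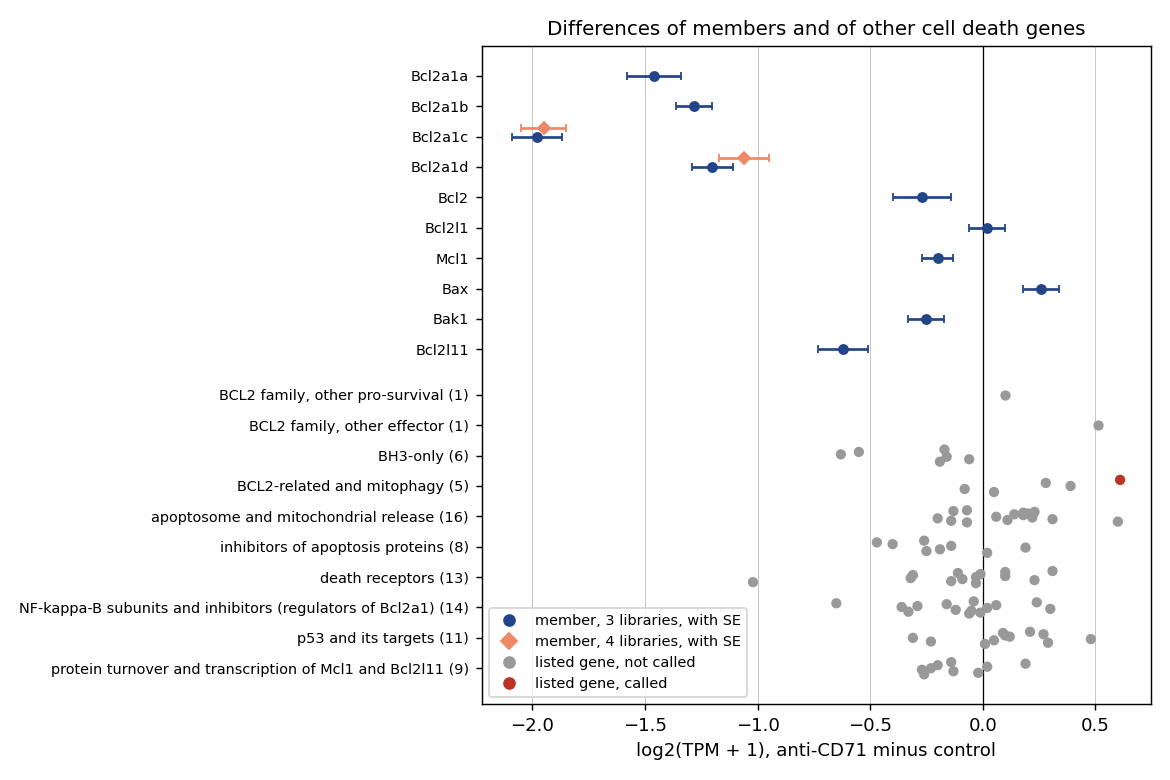
Difference between anti-CD71 and control tumours in log2(TPM + 1) for the 10 members (upper rows, with SE; circles, treated replicate 2 against 2 controls; diamonds, all 4 libraries) and for each tested gene of the other cell death lists (lower rows, number of tested genes in brackets). The paralogues lie between -1.98 and -1.20 over 3 libraries, and the other listed genes between -1.02 and 0.61.

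In TPM, which allows genes to be set beside each other, the order in the controls was Bax, Mcl1, Bcl2a1b, Bak1, Bcl2a1d, Bcl2l1, Bcl2a1a, Bcl2l11, Bcl2a1c and Bcl2. The neighbours Bcl2a1d and Bcl2l1 did not differ beyond the spread of the controls (68.0 ± 2.86 and 67.7 ± 1.88 TPM, SD, n = 2). All other neighbours kept their order in both controls. In treated replicate 2 the order was Bax, Mcl1, Bak1, Bcl2l1, Bcl2a1b, Bcl2a1d, Bcl2a1a, Bcl2l11, Bcl2 and Bcl2a1c. Bak1 and Bcl2l1 stood above every A1 gene there, and Bcl2a1c was the lowest member.

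Added together, the pro-survival transcripts (Bcl2a1, Mcl1, Bcl2l1 and Bcl2) made 489 and 504 TPM in the controls and 337 TPM in treated replicate 2. Summed Bcl2a1 was the largest part of them in both controls (43.6% and 44.2%) and a smaller part in the treated library (25.0%). Mcl1 took 41.0% and 41.3% in the controls and 52.9% in the treated library, and Bcl2l1 14.1% and 13.2% against 20.5%. A1 and Mcl1 were thus in like amounts in the controls, and Mcl1 was the largest part in treated replicate 2, the only treated library with these values. The effectors Bax and Bak1 together had 331, 305 and 348 TPM, so that the ratio of pro-survival to effector transcripts was 1.48 and 1.66 in the controls and 0.967 in the treated library. Without Bcl2a1 the ratio was 0.835 and 0.924 in the controls and 0.725 in the treated library. These are ratios of RNA in a whole tumour, where different cells may supply the parts. They leave out Bcl2l2 (25.0, 25.0 and 26.8 TPM) and Bok (51.2, 55.1 and 75.9 TPM in the controls and treated replicate 2). The truncated Bcl2a1c is counted as pro-survival in them, with 16.0 and 16.3 TPM in the controls and 3.34 TPM in treated replicate 2.

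**Figure D4:**
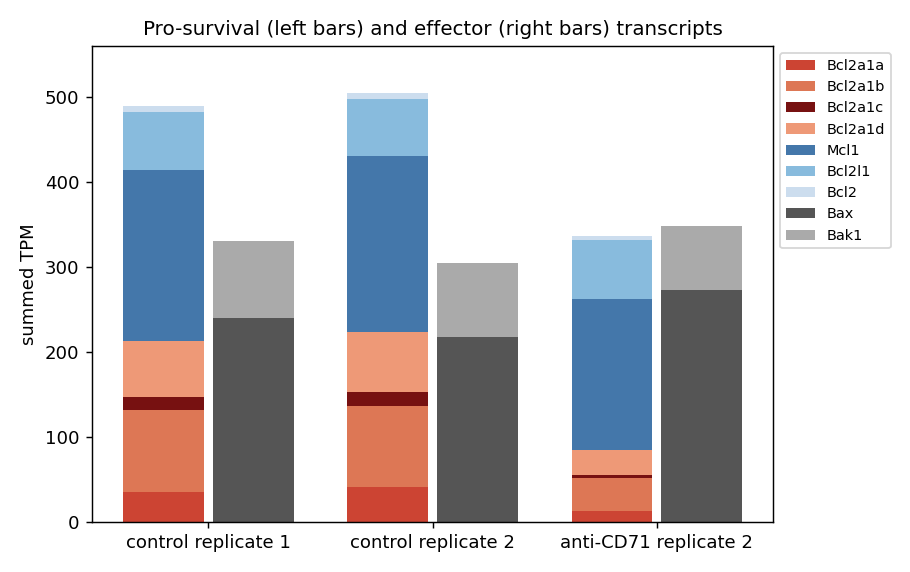
Summed TPM of the pro-survival members (left bar of each pair) and of the effectors Bax and Bak1 (right bar) in the 3 complete libraries, stacked by gene. The left bar is higher than the right one in both controls (489 against 331 and 504 against 305) and slightly lower in treated replicate 2 (337 against 348), and the red Bcl2a1 part is smaller there (84.3 TPM against 213 and 223).

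General leukocyte genes and most macrophage genes were also lower in the treated libraries that list them. Ptprc, which encodes the pan-leukocyte protein CD45, had 53.5 and 60.2 TPM in the controls and 29.4 TPM in treated replicate 2 (log2 difference -0.93, adjusted p = 0.029, limma). All 5 genes of the list of all leukocytes (Ptprc, Cd53, Laptm5, Coro1a and Lcp1) had a negative log2 difference over 3 libraries. Of all 11982 tested genes, 6160 had one too. Cd53, the only 1 of the 5 tested over 4 libraries, was called lower there (adjusted p = 0.0492, limma). It had 67.4, 73.5, 53.3 and 49.5 TPM in control replicates 1 and 2 and treated replicates 1 and 2. The summed level of the list was 766 and 863 TPM in the controls and 447 TPM in treated replicate 2. Among 12 macrophage and monocyte genes, 11 had a negative log2 difference over 3 libraries and 1 (Ly6c2) a positive one. Their sum was 3779 and 4565 TPM against 1988 TPM. Over 4 libraries 3 of them were tested and 2 (Csf1r and Cd14) were called lower, where 3.45% of all tested genes were. Csf1r, the receptor that macrophages need, had 126 and 157 TPM in the controls and 69.4 and 66.8 TPM in the treated libraries.

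Other leukocyte lists were at lower levels. Natural killer cell genes summed to 71.4 and 74.6 TPM in the controls and 16.9 TPM in treated replicate 2. All 4 tested genes had a negative log2 difference over 3 libraries. Over 4 libraries Ncr1 alone of them was tested, and it was not called (adjusted p = 0.0554, limma). T cell genes summed to 12.8 and 13.5 TPM against 5.80 TPM (negative for 6 of 6 tested), and dendritic cell genes to 20.7 and 24.8 against 16.9 TPM (6 of 7). B cell genes summed to 1.42 and 2.19 against 0.81 TPM (none tested). Over 4 libraries Cd3g, Cd5 and the dendritic cell gene Cd209a were tested and not called (adjusted p = 0.0651, 0.181 and 0.827, limma). Mast cell and basophil genes summed to 105 and 51.9 TPM against 166 TPM, with 0 of 7 tested genes called, 5 of them with a positive difference and 2 (Kit and Mcpt8) with a negative one. In treated replicate 1, Cma1 had 16.6 TPM, between the controls (17.4 and 9.96 TPM), and Mcpt8 1.10 TPM, below them (2.28 and 2.03 TPM). Neutrophil genes summed to 17.2 and 11.7 TPM in the controls and 510 TPM in treated replicate 2, nearly all of it S100a8 (265 TPM) and S100a9 (213 TPM). This library also held the skin and hair genes named above, and which cells supplied S100a8 and S100a9 was not tested. Retnlg was listed at 0 in both controls and had 17.3 TPM in treated replicate 2, and Csf3r had 7.87 and 7.63 against 10.6 TPM (not called), Cxcr2 0.15 and 0.09 against 1.5 TPM and Mmp8 0.14 and 0.16 against 1.01 TPM. Mpo, Elane, Camp, Ltf and Ngp were under 1 TPM in all complete libraries.

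In a whole tumour, fewer cells of a type and less RNA per cell cannot be told apart, so the size of the A1 difference was set beside that of the tested genes of each leukocyte list. In treated replicate 2 the paralogues stood at 20.7% to 42.7% of their control mean (median 37.5%), the 5 leukocyte genes at 48.4% to 70.2% (median 53.8%), and the 12 macrophage genes at 38.3% to 103.7% (median 59.8%). The ranges of the paralogues and the general leukocyte genes did not overlap, but C1qa, C1qb and C1qc, complement genes of macrophages, lay inside that of the paralogues (42.3%, 38.3% and 39.9%). The 4 natural killer cell genes stood lower than most of the paralogues, at 21.5% to 33.1% (median 25.0%), with Prf1, the perforin gene, at 21.5%. T cell genes stood at 29.4% to 85.8% (median 46.5%), dendritic cell genes at 48.1% to 146.5% (65.5%) and mast cell and basophil genes at 14.8% to 451.5% (189.9%). The other 6 members stood at 63.1% to 119.6% (median 85.6%). In treated replicate 1, Bcl2a1c stood at 21.8% and Bcl2a1d at 52.2%, beside 75.6% for Cd53, 49.1% for Csf1r, 75.4% for Cd14 and 71.1% for Mertk. The natural killer cell gene Ncr1 stood at 48.4% there, against 23.9% in treated replicate 2. The T cell genes Cd3g and Cd5 stood at 58.3% and 30.4% in treated replicate 1, Cd209a at 80.6%, Cma1 at 121.9% and Mcpt8 at 54.9%.

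Divided by Ptprc, summed Bcl2a1 was 3.98 and 3.70 in the controls and 2.87 in treated replicate 2. Divided by Cd68, a lysosomal protein gene of macrophages, it was 0.637 and 0.605 against 0.415, and divided by Csf1r 1.70 and 1.42 against 1.26. Not all genes gave this picture. Of 44 tested genes over all leukocyte lists, the ratio in treated replicate 2 was below both controls for 34, between them for 4 and above both for 6. The 34 include 3 neutrophil and 6 mast cell and basophil genes, most of them higher in that library than in the controls. The paralogues were chosen with their lower level known, so a gene that differed less gives a lower ratio whatever its cell type. The share over all tested genes was not computed, and nothing is read from these counts. The ratio was below both controls for all 5 general leukocyte genes and for 10 of 12 macrophage genes, C1qa by little (0.234 and 0.195 against 0.194). It lay between the controls for C1qb (0.309 and 0.244 against 0.275) and C1qc (0.228 and 0.187 against 0.199), and above both for all 4 natural killer cell genes, as for Prf1 (4.01 and 4.4 against 7.56). Relative to leukocyte genes, summed Bcl2a1 was thus lower, alike or higher depending on the gene. The part of leukocyte content in the difference was not tested.

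**Figure D5:**
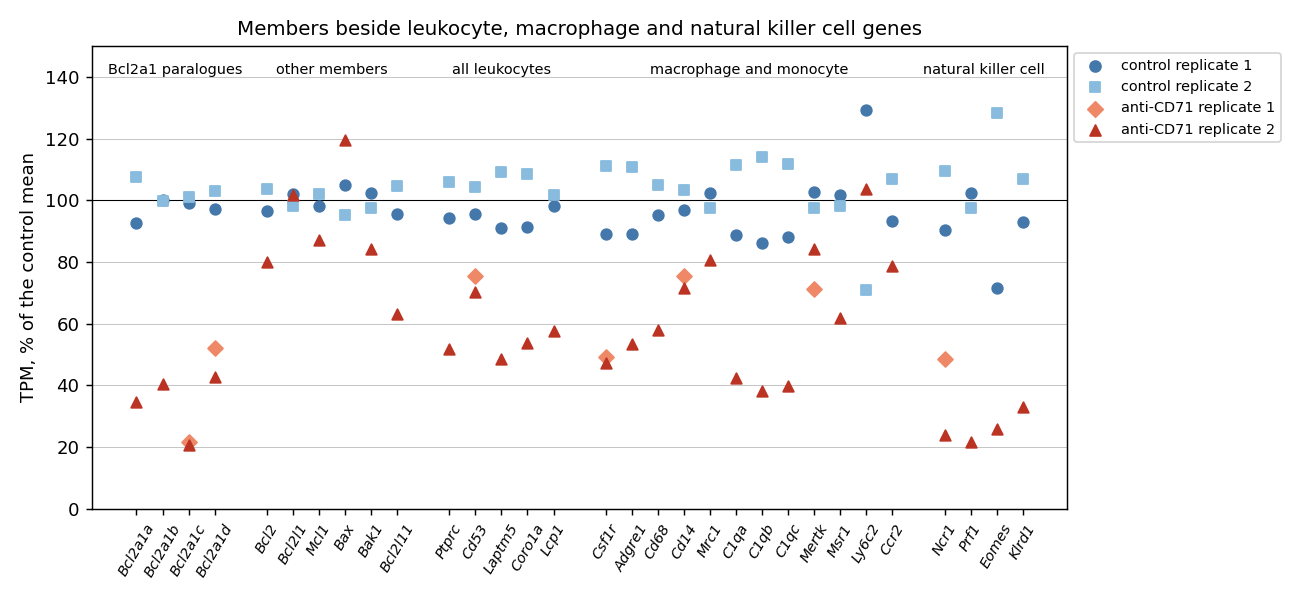
TPM of the members and of general leukocyte, macrophage and natural killer cell marker genes in each library, in percent of the mean of the 2 controls. In treated replicate 2 the 4 paralogues (20.7% to 42.7%) lie below the 5 general leukocyte genes (48.4% to 70.2%), C1qa, C1qb and C1qc lie among the paralogues, and the 4 natural killer cell genes at 21.5% to 33.1%; treated replicate 1 is drawn for the genes listed in its file.

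By the smallest root mean square difference between centred log2(TPM + 1) profiles, the genes most like Bcl2a1d over 4 libraries, out of 1561 others, were Tmem119 (0.036), Timd4 (0.040) and Klra3 (0.099). Tmem119 had 58.4 and 61.1 TPM in the controls and 32.2 and 24.5 TPM in treated replicates 1 and 2. Timd4, which encodes a phosphatidylserine receptor of macrophages, had 7.84, 8.31, 3.62 and 2.70 TPM in the same order. Bcl2a1c had no gene as near to it: the closest were H2bc11 (0.364), listed at 0 in both treated libraries, Cd83 (0.373), with 18.5, 23.3, 9.50 and 6.09 TPM, and Cd96 (0.417). For summed Bcl2a1 over 3 libraries and 11972 others, they were Tsc22d3 (0.005), the glucocorticoid-induced leucine zipper gene, Gstt1 (0.008) and Gpr65 (0.008). With so few libraries many genes can share a profile.

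No other listed cell death gene lay as far below the controls over 3 libraries as the paralogues, which were chosen with their difference known. The lists held 90 genes beside the members, of which 89 were found (Hrk was not analysed here) and 84 were tested over 3 libraries. Of these, 1 rose and 0 fell (limma, adjusted p under 0.05), where 2.86% of all tested genes were called. At an unadjusted p under 0.05 there were 24, against 24.7% of all tested genes. Their log2 differences ran from -1.02 to 0.61 with a median of -0.03, beside -0.01 for all tested genes, and 38 were positive and 46 negative. These counts do not set the listed genes apart from genes at large. Over 4 libraries 9 could be tested and 0 were called by limma, with 2 at an unadjusted p under 0.05, where 4.29% of all tested genes were called and 26.6% reached that p.

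The gene that rose was Bnip2, named for its binding to BCL2. It had 79.5 and 75.2 TPM in the controls and 119 TPM in treated replicate 2 (log2 difference 0.61, SE 0.08, adjusted p = 0.0378, limma). It was no longer called with no filter, with 1 TPM asked for in 1 library, or with curated transcripts alone. Its relatives Bnip3 and Bnip3l, which mark mitochondria for removal and respond to low oxygen, had 151 and 160 against 205 TPM (adjusted p = 0.0675) and 99.4 and 98.6 against 121 TPM (adjusted p = 0.108). Both lay above both controls but did not pass the test.

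Among the remaining family members, Bcl2l2, the gene of pro-survival BCL-W, had 25.0, 25.0 and 26.8 TPM. Bok, an effector related to Bax, had 51.2 and 55.1 TPM in the controls and 75.9 TPM in treated replicate 2 (log2 difference 0.51, adjusted p = 0.0591), and it did not pass the test. All 6 BH3-only genes tested had negative differences, with a median of -0.18, and 0 were called. Of these, Bbc3, the gene of the p53 target PUMA, had 10.2 and 10.3 against 6.68 TPM (-0.55, adjusted p = 0.0727), while Bid had 34.8 and 31.9 against 29.0 TPM and Bad 49.4 and 44.7 against 45.2 TPM. Fasl, the death ligand of cytotoxic lymphocytes, had the lowest difference of all the listed genes (-1.02, adjusted p = 0.086).

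None of the 16 genes of the apoptosome and mitochondrial release list was called, and their median was 0.16. Cycs, the gene of cytochrome c, had 96.7 and 84.1 TPM in the controls and 137 TPM in treated replicate 2 (log2 difference 0.60, adjusted p = 0.0611), above both controls, and did not pass the test. Tmbim6 had 540 and 515 against 502 TPM, and Vdac3, a channel of the outer membrane, 243 and 243 against 276 TPM. Vdac2, which holds BAK at mitochondria, was listed in all files with 269, 248, 273 and 297 TPM in control replicates 1 and 2 and treated replicates 1 and 2. Of 8 tested inhibitors of apoptosis proteins none was called, and Birc5, the gene of survivin, had 195 and 193 against 221 TPM.

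None of the 14 genes of NF-kappa-B subunits and their inhibitors, known regulators of A1, was called either, and their median was -0.05. Nfkb1 had 83.5 and 85.7 TPM in the controls and 81.5 TPM in treated replicate 2, Nfkb2 105 and 98.2 against 93.6 TPM, and Nfkbia, an inhibitor that is itself a target, 97.7 and 97.2 against 120 TPM (adjusted p = 0.0985). Tnfaip3, a target and inhibitor listed in all files, had 13.4 and 13.2 TPM in the controls and 19.8 and 13.8 TPM in treated replicates 1 and 2. Treated replicate 2 lay near the controls and treated replicate 1 above them. These are RNA levels and do not measure the activity of the factor.

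The p53 list had a median of 0.10 and 0 of 11 called. Trp53 itself had 165 and 160 against 163 TPM, and its target Cdkn1a 192 and 150 against 176 TPM. Bax, which is also a p53 target, lay above both controls, and Bbc3 below them. Of 13 genes of the death receptor list none was called, and Casp8, the initiator caspase, had 70.5 and 67.2 against 55.4 TPM (adjusted p = 0.116). Among 9 tested genes for turnover and transcription of Mcl1 and Bcl2l11, none was called, and Dynll1, a dynein light chain that binds BIM, was listed in all files with 120.0, 123, 134 and 139 TPM in control replicates 1 and 2 and treated replicates 1 and 2.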

How the data were processed

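Bulk RNA-seq of 2 control and 2 anti-CD71 SCC7 tumours was used as deposited. The authors deposited TPM per RefSeq transcript, which sum to the same total in each complete file. Per the submitters' processing notes the genome build was GRCm38.p6. Aligner and counting program are not given in the sources read. RNA was extracted with TRIZOL and libraries were made by BGI, per the labels' protocols. A RefSeq gene table matched 58425 of 59881 transcripts to symbols, and TPM were added per gene (17574 genes). Transcripts without a symbol held 1.42% to 1.55% of TPM.

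The test was limma (version 3.58.1, R version 4.3.3) with an intensity trend, on values of log2(TPM + 1), for genes with at least 1 TPM in 2 libraries. Calls were made at an adjusted p under 0.05 (Benjamini-Hochberg, over all genes tested). On this scale the change of low genes is understated. Over 4 libraries a gene entered where transcripts listed in all files held at least 90% of its TPM. Over 3 libraries the fit takes its spread from the controls and assumes the same for the lone treated library. P-values measure the spread between these libraries, which may be technical. The code was tested on simulated data.

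The 10 members, the gene lists and the tests were chosen with earlier results of these data known. The text names all members, each called cell death gene, up to 3 further genes per cell death list by mean level, and the 3 profiles nearest to Bcl2a1c, Bcl2a1d and the Bcl2a1 sum. Cycs, Fasl, Tnfaip3 and the marker genes were named after their values were seen. Coding sequences came from GENCODE M21 and promoters from RefSeq (GRCm38.p6), read with Python 3.11.15. Alternatives were other pseudocounts (0.1, 0.5), filters, a common median, curated transcripts alone, other limits on listing (50% or all transcripts), a replicate block and each library left out.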

Additional observations from a re-analysis of the deposited data

How the results depend on the processing

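Of 110 alternative values of the members' log2 differences, 14 moved by more than the spread of the replicates. Every member kept its sign except Bcl2l1, whose values lay at 0 to 0.07. Bcl2a1c moved most, between -2.20 and -1.91 over 4 libraries and between -2.24 and -1.94 over 3 libraries, apart from the value of the 4 paralogues summed (-1.36). Summed Bcl2a1 stayed between -1.39 and -1.32. Counts of called genes depended far more on the settings. Over 4 libraries, 67 genes were called (13 higher, 54 lower). Scaling to a common median gave 57 with another split (21 higher, 36 lower). The count was 1 with no filter, 8 with at least 1 TPM in 1 library, 11 with curated transcripts alone, 39 with all transcripts in all files, and 1 to 96 when each library was left out: 1 without control replicate 1, 2 without control replicate 2, 96 without anti-CD71 replicate 1 and 33 without anti-CD71 replicate 2. With 1 library left in a group, that library is assumed to vary like the other group. With the replicate number as a block 3 genes were called, and of the members Bcl2a1c alone. The deviations of same-numbered libraries correlated at -0.006, and the labels give the numbers no shared animal or day, so they were not treated as pairs. Over 3 libraries, 343 genes were called (57 higher, 286 lower), against 0 with no filter (3401 at an unadjusted p under 0.05, limma), 72 with at least 1 TPM in 1 library (60 higher, 12 lower) and 207 with a common median (35 higher, 172 lower). Leaving out a control there leaves no residual degrees of freedom, so only values were computed. The count of 1 cell death gene over 3 libraries became 0 with no filter, with at least 1 TPM in 1 library and with curated transcripts alone (18, 21 and 21 at an unadjusted p under 0.05, limma). Over 4 libraries it was 0 in all settings run, with between 0 and 5 at an unadjusted p under 0.05. The causes were not tested. TPM keep no depth, so no detection limit can be given.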
